A study of Mus musculus with 9 samples.

Results

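Open chromatin was compared between tissue-converted and tissue-resident macrophages of the mouse peritoneal cavity, using every peak of the merged ATAC-seq list that the labels credit to each group. ATAC-seq maps open DNA by letting the Tn5 transposase insert sequencing adapters where chromatin is accessible. The members were all 15552 peaks of the converted list and all 24348 peaks of the resident list, 39900 of the 73594 peaks in the series, and the monocyte-derived list was set aside. Each group held 3 samples, and all mice had the genotype Cx3cr1CreERT2-IRES-EYFP/+ Rosa26-stopfl-tdTomato/+, in which tamoxifen lets cells with active Cx3cr1 acquire the red fluorescent protein tdTomato. For the converted group, mice received 2 ml of thioglycollate, which irritates the cavity and recruits monocytes, and were fed tamoxifen for 8 weeks. For resident macrophages the labels list no treatment of their own. All mice, resident controls included, were injected with complexes of IL-4 (5 µg) and its antibody (25 µg) every other day, starting 4 days before the cells were taken. Cell origin and treatment changed together between the groups and cannot be told apart. Each group has 1 merged list, so no value has a spread between replicates and no p-value between the groups can be given. The 95% Wilson intervals in the text cover counting error over peaks only. Read depth is unknown, so absence of a peak does not show that the DNA was closed.

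Large resident macrophages of the peritoneal cavity are long-lived, self-renewing cells whose identity depends on the transcription factor GATA6, which retinoic acid induces. Monocytes recruited by inflammation can enter the same cavity and slowly take on features of the resident cells. IL-4 drives alternative activation through its receptor and STAT6, and brings on genes such as Arg1 (arginase), Retnla (the secreted protein RELM-alpha), Chil3 (a chitinase-like protein) and Mrc1 (the mannose receptor). Promoters and enhancers that are in use are usually open, and promoters are often open in many cell types while enhancers vary more.

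In all, 7 promoter windows are shown first as examples: 3 were open only in the converted list, 3 only in the resident list and 1 in both. They were in part chosen after their values were seen, and they do not follow the shares over genes. Of 6409 genes with an open window in either list, 73.1% were open in both, 4.18% in converted only and 22.7% in resident only. Each window runs from 250 bases before to 50 bases after a transcription start in RefSeq (GRCm38.p6), is written 5′ to 3′ on the strand of the gene, and has the bases inside a called peak in capitals. C3ar1 encodes the receptor for the complement fragment C3a (chr6:122856108-122856407, minus strand). Srgap3 encodes a GTPase-activating protein of the cytoskeleton (chr6:112947217-112947516, minus strand). Abcf1 encodes an ATP-binding protein that acts in translation (chr17:35969701-35970000, minus strand). Retnla lies at chr16:48842359-48842658, plus strand. Stat6 encodes the transcription factor that IL-4 activates (chr10:127642736-127643035, plus strand). H2-Eb1 encodes an MHC class II beta chain (chr17:34305617-34305916, plus strand). Irf4 encodes a transcription factor induced by IL-4 (chr13:30748983-30749282, plus strand), and its capitals mark the converted peak.
C3ar1, converted only: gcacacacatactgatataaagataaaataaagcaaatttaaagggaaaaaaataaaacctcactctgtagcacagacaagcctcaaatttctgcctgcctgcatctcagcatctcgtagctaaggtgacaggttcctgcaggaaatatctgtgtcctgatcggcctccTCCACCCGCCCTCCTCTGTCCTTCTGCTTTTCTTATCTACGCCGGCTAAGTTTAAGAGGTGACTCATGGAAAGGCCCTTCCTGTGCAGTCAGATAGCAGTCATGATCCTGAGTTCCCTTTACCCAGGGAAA
Srgap3, converted only: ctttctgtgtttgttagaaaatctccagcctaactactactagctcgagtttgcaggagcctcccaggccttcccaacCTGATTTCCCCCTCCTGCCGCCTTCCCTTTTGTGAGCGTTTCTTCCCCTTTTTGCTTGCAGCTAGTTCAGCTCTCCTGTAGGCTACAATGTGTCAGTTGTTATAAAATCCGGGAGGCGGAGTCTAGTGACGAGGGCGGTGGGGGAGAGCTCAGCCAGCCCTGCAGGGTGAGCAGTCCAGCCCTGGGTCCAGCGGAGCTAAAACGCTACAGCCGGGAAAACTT
Abcf1, converted only: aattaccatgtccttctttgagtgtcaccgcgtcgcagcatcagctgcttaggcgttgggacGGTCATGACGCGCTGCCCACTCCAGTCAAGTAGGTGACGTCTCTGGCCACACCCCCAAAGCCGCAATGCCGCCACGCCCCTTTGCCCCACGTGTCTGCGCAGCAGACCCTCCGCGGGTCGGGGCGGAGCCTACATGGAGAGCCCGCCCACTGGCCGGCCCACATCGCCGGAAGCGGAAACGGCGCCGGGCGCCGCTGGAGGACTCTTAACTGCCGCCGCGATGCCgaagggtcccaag
Retnla, resident only: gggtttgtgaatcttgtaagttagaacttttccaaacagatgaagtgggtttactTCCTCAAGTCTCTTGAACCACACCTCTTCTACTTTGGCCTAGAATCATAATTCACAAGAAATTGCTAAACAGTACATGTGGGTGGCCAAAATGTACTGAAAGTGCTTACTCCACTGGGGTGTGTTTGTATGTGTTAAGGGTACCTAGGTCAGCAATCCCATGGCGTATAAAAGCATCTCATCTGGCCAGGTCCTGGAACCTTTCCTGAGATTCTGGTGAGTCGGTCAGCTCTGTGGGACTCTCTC
Stat6, resident only: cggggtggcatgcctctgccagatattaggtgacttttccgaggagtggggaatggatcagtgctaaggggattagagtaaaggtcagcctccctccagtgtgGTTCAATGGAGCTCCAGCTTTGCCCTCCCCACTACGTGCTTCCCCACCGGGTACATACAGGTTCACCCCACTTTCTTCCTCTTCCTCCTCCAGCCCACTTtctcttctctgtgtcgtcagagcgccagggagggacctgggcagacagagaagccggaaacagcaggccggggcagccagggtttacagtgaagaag
H2-Eb1, resident only: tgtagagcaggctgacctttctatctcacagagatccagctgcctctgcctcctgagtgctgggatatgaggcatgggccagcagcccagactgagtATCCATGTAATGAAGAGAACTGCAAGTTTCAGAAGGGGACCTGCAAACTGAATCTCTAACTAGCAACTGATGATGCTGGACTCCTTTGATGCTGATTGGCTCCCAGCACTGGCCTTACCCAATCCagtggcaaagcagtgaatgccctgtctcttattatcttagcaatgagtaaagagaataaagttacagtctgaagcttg
Irf4, both lists: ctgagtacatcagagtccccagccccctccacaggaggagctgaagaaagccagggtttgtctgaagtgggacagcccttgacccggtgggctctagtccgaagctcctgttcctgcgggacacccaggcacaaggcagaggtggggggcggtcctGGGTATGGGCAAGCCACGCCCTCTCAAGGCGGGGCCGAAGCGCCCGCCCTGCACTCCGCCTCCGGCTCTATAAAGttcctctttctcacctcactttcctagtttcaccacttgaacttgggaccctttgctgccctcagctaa

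These windows differed in the motifs they held. A short palindrome bound by STAT factors, TTC and GAA with 4 bases between them, matched at bases 106 to 115 of the Retnla window, inside the resident peak, and it was present in 6.41% of all 21045 windows. The C3ar1 window held an AP-1 match, TGANTCA, at bases 229 to 235 and a GATA match, AGATAA on the other strand, at bases 202 to 207, both inside the converted peak. AP-1 matches were present in 7.04% and GATA matches in 9.68% of all windows. The H2-Eb1 window held a pair of CCAAT boxes inside the resident peak, a motif present in 38.5% of windows. The Abcf1 window held an E-box, CACGTG, inside its peak. A match is a string of letters and was not tested as a binding site.

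Most converted peaks lay where the resident list was also open, while the resident list held many further peaks. Of the 15552 converted peaks, 13151 (84.6%, 84.0 to 85.1%) shared at least 1 bp with a resident peak. Of the 24348 resident peaks, 13041 (53.6%, 52.9 to 54.2%) shared at least 1 bp with a converted peak. The remainder came to 2401 converted peaks and 11307 resident peaks. Counted in bases, 2015725 bp were covered by both lists, which was 81.9% of the converted and 55.4% of the resident coverage. When overlapping peaks were merged to regions, 11184 of 23649 regions (47.3%) were called in both lists, 2228 (9.42%) in converted only and 10237 (43.3%) in resident only.

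The imbalance moved with the length of the lists. With the resident list held to its 15552 widest peaks, 74.9% of converted and 68.2% of resident peaks were shared. With the resident list held to its 15552 peaks of smallest p-value, the shares were 61.3% and 57.4%. The p-values deposited with the lists reached 1.49615e-05 in the resident list, where 5476 peaks (22.5%) lay above 1e-05, whereas 0 converted peaks did. The lists thus did not end at the same p-value. Both lists carry a p-value of 1e-05 in their deposited names, which those 5476 resident peaks exceed. Whether 1e-05 was the calling limit is not stated, and the peak caller is not named.

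Peaks present in 1 list alone were narrow. Their median width was 75 bp in the converted list and 100 bp in the resident list, against 150 and 175 bp for shared peaks. Peaks of 75 bp, the smallest width in either list, made up 53.2% of unshared converted and 46.1% of unshared resident peaks. Overlap climbed with width in both lists. Among peaks of 75 bp, 67.5% of converted and 26.3% of resident peaks were shared, and among peaks of 125 to 150 bp the shares were 87.5% and 53.7%. From 225 to 300 bp they reached 99.4% and 94.6%, and of the wider peaks 8 resident and 0 converted peaks were unshared. Wider peaks also have more room to touch a peak of the other list, and how much of the trend that accounts for was not tested.

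**Figure D1:**
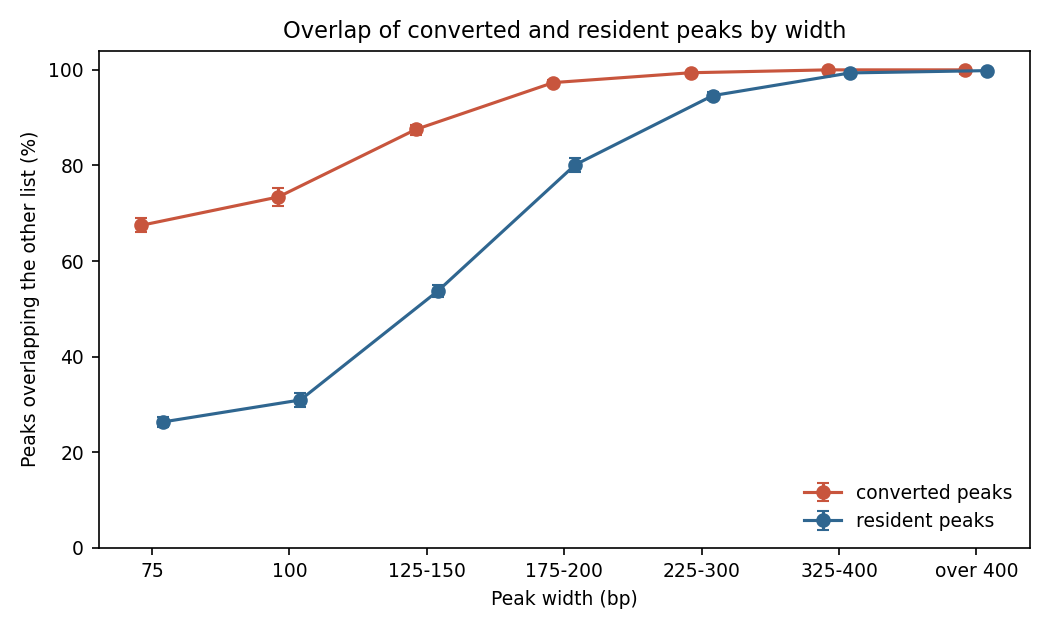
Share of peaks that overlap the other list (vertical axis, percent) by peak width (horizontal axis, bp), for converted (red) and resident (blue) peaks; bars are 95% Wilson intervals. Resident peaks of 75 bp were shared in 26.3% of cases and converted peaks of that width in 67.5%, and both lists came close to 100% in the widest classes.

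Unshared peaks often lay beside a peak of the other list. Of the 2401 unshared converted peaks, 33.9% had a resident peak within 200 bp and 45.5% within 1 kb, with a median gap of 2650 bp. Unshared resident peaks were farther away, with 19.9% within 200 bp and 28.7% within 1 kb of a converted peak and a median gap of 17525 bp. The lists also cut broad open stretches into pieces: the next peak of the same list overlapped by exactly 25 bp, the step of the grid on which peak edges lie, for 9.28% of converted and 9.75% of resident peaks. Some unshared peaks are thus flanks of a shared site, as at Irf4, where a resident-only region of 125 bp began at the base after a shared region of 150 bp.

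The strongest peaks were almost all shared. The smallest p-value in both lists was 1e-12. At that floor, 3084 of 3093 converted peaks (99.7%, 99.4 to 99.8%) and 3079 of 3134 resident peaks (98.2%, 97.7 to 98.6%) overlapped the other list. Only 9 converted peaks at the floor were unshared. They included a 225 bp peak inside Meis1, a homeobox transcription factor gene (chr11:18924964-18925188, 44536 bp from the nearer gene end), and the 225 bp peak at the Abcf1 promoter. The others lay at the starts or ends of Tbc1d4 (a Rab GTPase-activating protein of glucose uptake), Kbtbd8, Srgap3 and Ifi207 (an interferon-inducible gene), inside Stard8, and, for 2 of them, in a dense stretch of chromosome 11 described further on.

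Floor peaks of the resident list alone numbered 55, of which 13 lay in dense stretches. The widest was a 700 bp peak in Sp140, which encodes a chromatin reader of immune cells (chr1:85592689-85593388), although it overlapped a further resident peak that was shared, so the site as a whole was called in both lists. A 375 bp peak sat at an end of Trappc8, a vesicle-tethering subunit (chr18:20896264-20896638), and a 300 bp peak at an end of Smim7 (chr8:72570964-72571263). At the promoter of Map9, a microtubule-associated protein gene, the resident list held a 275 bp peak (chr3:82357864-82358138) and the converted list none within 1 kb. Distal examples were a 275 bp peak 726089 bp from Cited2, a coactivator-binding gene, and a 250 bp peak inside Fhit. The examples were chosen after their widths and places were seen.

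Position along genes separated shared from unshared peaks more than it separated the lists. In each list 56.4% of shared peaks fell near a gene end, meaning at most 1 kb from either end of a gene that encodes a protein. Unshared peaks did so in 36.4% (34.5 to 38.3%) of the converted and 37.6% (36.7 to 38.5%) of the resident list. Of all unshared peaks, 39.8% of converted and 35.0% of resident peaks lay deeper inside a gene, and 23.9% and 27.4% lay outside genes. The annotation used gives no exons, so exonic and intronic positions are not stated.

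Start sites from the promoter table, which has none on chromosome 18, gave the same picture. Midpoints of shared converted peaks were a median of 512 bp from the nearest start, and those of shared resident peaks 527 bp. For unshared peaks the medians were 13436.5 bp in the converted and 12508 bp in the resident list. In the 100 bp just before a start lay 19.1% of shared and 8.08% of unshared converted peaks, and 19.5% of shared and 8.65% of unshared resident peaks. Both classes therefore peaked at the same place, with a lower peak for the unshared.

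**Figure D2:**
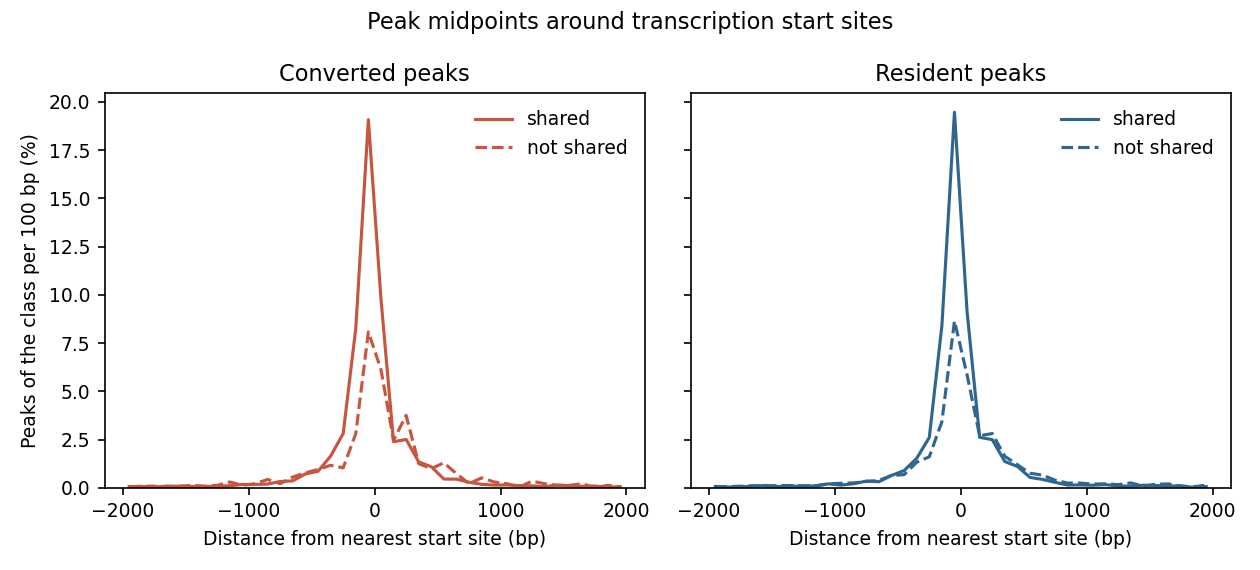
Distance of peak midpoints from the nearest transcription start (horizontal axis, bp, negative before the start) against the share of the class in each 100 bp (vertical axis, percent), for shared (solid) and unshared (dashed) peaks of the converted (left) and resident (right) list. All 4 curves are highest in the 100 bp before the start, at 19.1% and 8.08% in the converted list and 19.5% and 8.65% in the resident list.

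In the converted list the shared portion went from 78.4% (73.9 to 82.2%) on chromosome 19 to 87.1% (84.3 to 89.5%) on chromosome 12. The intervals of chromosome 19 and of chromosome 9 (81.1%, 78.2 to 83.6%) lay below the 84.6% of the whole list, with no adjustment for the number of chromosomes. In the resident list it went from 47.1% (42.6 to 51.7%) on the X chromosome to 57.4% (54.8 to 59.9%) on chromosome 3. The X chromosome also had the most resident peaks per converted peak, 1.75, against 1.46 on chromosome 9. A 100 kb stretch of chromosome 11 around Sfi1, a centrosome gene (chr11:3100001-3200000), held 165 regions, of which 81 were called in both lists, 9 in converted only and 75 in resident only. A second dense stretch on chromosome 1 spanned Mroh2a, Hjurp and part of the Ugt1a cluster (chr1:88200001-88300000), with 5 regions in both lists, 2 in converted only and 27 in resident only. The widest peak of each list was a shared one on chromosome 17, of 3125 bp in the converted list (chr17:39843264-39846388) and 3100 bp in the resident list.

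At promoters, shared opening was the rule. The promoter table covered 17274 protein-coding genes. A window was open in both lists for 4686 genes (27.1%), in converted only for 268 (1.55%) and in resident only for 1455 (8.42%). Of the 6409 genes with an open window in either list, 73.1% were open in both, 4.18% in converted only and 22.7% in resident only. For 205 of the 268 converted-only genes (76.5%) no resident peak lay within 1 kb of any start of the gene. For 1272 of the 1455 resident-only genes (87.4%) no converted peak did. At equal lengths the counts of converted-only and resident-only genes were 519 and 900 with the widest resident peaks, and 1108 and 891 with those of smallest p-value, which turned the order.

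Promoter windows open in 1 list resembled windows open in both in base composition. The median share of G and C was 63.7% for windows open in both lists, 61.7% for converted only, 60.7% for resident only and 52.7% for neither, and the median number of CpG dinucleotides was 24, 22, 21 and 6. The GC box, GGGCGG, was found in 76.4%, 71.2%, 66.1% and 32.6% of these classes, against 46.7% of all windows. The ETS motif CCGGAAGT, which shares its last 6 letters with the PU.1 motif GAGGAAGT, was found in 9.69% of windows open in both lists, 6.58% (4.35 to 9.85%) of converted only, 9.92% (8.59 to 11.4%) of resident only and 2.91% of neither. CCAAT boxes were more common in windows open in both lists, at 47.9%, than in those of converted only (36.4%, 31.3 to 41.8%) or resident only (35.7%, 33.5 to 38.0%). The intervals of converted-only and resident-only windows overlapped for each of the 15 motifs searched, and no motif was tested between them.

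Stretches read by interferon and STAT factors were uncommon in every class. The IRF composite motif, GAAA repeated after a gap of 2 bases and bound by interferon regulatory factors, was found in 4.39% (2.63 to 7.23%) of converted-only windows, 2.05% (1.48 to 2.84%) of resident-only windows, 2.38% of windows open in both and 3.89% of windows open in neither. Its converted-only count was 14 of 319 windows. NRF1 sites, GCGCATGC, were found in 3.76% (2.16 to 6.46%) of converted-only and 7.34% (6.19 to 8.67%) of resident-only windows. The STAT palindrome was found in 5.33% of converted-only and 4.93% of resident-only windows. All motifs were read on both strands.

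**Figure D3:**
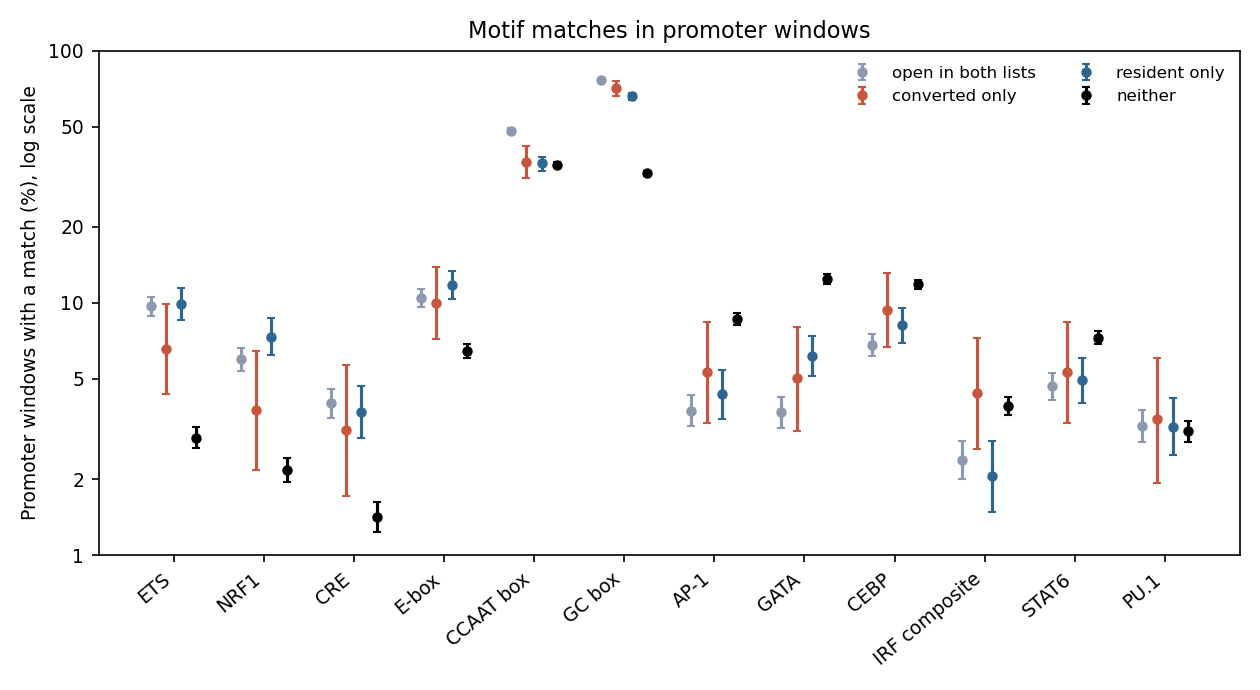
Share of promoter windows with a motif match (vertical axis, percent, log scale) for 12 of the 15 motifs (horizontal axis), in windows open in both lists (grey), converted only (red), resident only (blue) or neither (black); bars are 95% Wilson intervals. ETS matches reach 9.69% and 9.92% in windows open in both lists and in resident only, and 2.91% in windows open in neither.

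Regions were then assigned to genes, taking the gene body with 10 kb of flank at both ends. A gene's net is its converted-only regions minus its resident-only regions. The resident list was longer, and more resident regions was the usual state. Of 12014 genes with a region, 6562 (54.6%) had more resident regions and 1006 (8.37%) had more converted regions. The median net was -1. With the widest resident peaks at equal length the portions of 10912 genes were 31.7% and 21.6%, with a median net of 0. With the resident peaks of smallest p-value they were 33.1% and 29.7% of 11151 genes. Counts for gene groups are to be read against these shares, and no group was tested. Genes with 2 or more regions in 1 list and 0 in the other numbered 30 for converted and 832 for resident, 101 and 287 with the widest resident peaks, and 285 and 377 with those of smallest p-value.

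Alternative activation genes had more resident regions in a larger share of cases than genes in general with all peaks and with the widest resident peaks, and less clearly so with the resident peaks of smallest p-value. Of 36 genes, 25 had a region, and 22 (88.0%) had more resident regions, 2 more converted regions and 1 equal numbers. In all they had 29 converted and 64 resident regions. Against the widest resident peaks 14 of 22 members with a region had more resident regions, against the 31.7% of all genes, and 3 had more converted regions. With the resident peaks of smallest p-value the counts were 9 (40.9%) and 3 (13.6%) of 22, beside 33.1% and 29.7% of all genes.

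Effector genes of the IL-4 response made up part of that lean. Arg1 had 3 regions: a 350 bp region 2693 bp from the gene (chr10:24930164-24930513) and a 125 bp region farther out (chr10:24931589-24931713) were called in both lists, and a 100 bp region at the gene end in resident only. Retnla had 2 regions, a 325 bp region at the gene start (chr16:48842414-48842738, the promoter shown above) and one 8770 bp away, both resident only. Mrc1 had 2 resident-only regions of 75 bp. Ccl17, which encodes a chemokine for T helper cells, had 2 that abut, and Chil3 had 1. Retnla, Mrc1, Ccl17 and Chil3 had 0 converted regions. At equal length by width Retnla had 1 resident region and Mrc1 0, and at equal length by p-value Retnla had 0 and Mrc1 1. Pdcd1lg2, the ligand PD-L2, had no region in either list.

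Genes that relay the IL-4 signal differed among themselves. Stat6 had 2 regions called in both lists and 4 in resident only, 3 of them within 1 kb of the gene end that holds the promoter shown above. Slc7a2, which encodes a transporter for cationic amino acids such as arginine, had the largest net of the group: 1 shared region of 125 bp at its end, flanked by resident-only regions, and 6 resident-only regions in all. It had 1 converted and 3 resident regions at equal length by width. Il4ra, the IL-4 receptor chain, had 3 converted and 5 resident regions, and the kinase gene Jak1 had 2 and 3. Il2rg, which encodes the common gamma chain of the receptor, had 2 converted and 1 resident regions, the kinase gene Tyk2 had 1 shared region, and Il13ra1 and Jak3 had none in either list. By comparison, Egr2, an IL-4-induced transcription factor gene, had 2 shared and 2 converted-only regions and none in resident only. Irf4 had 1 shared and 1 resident-only region, which abut.

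With all peaks, MHC class II genes, whose products present antigen to T cells, were close to the shares of all genes. Of 14 genes with a region, 8 (57.1%) had more resident and 1 (7.14%) more converted regions, beside 54.6% and 8.37%. The other 5 had equal numbers. At equal length by width the counts were 5 (45.5%) and 2 (18.2%) of 11, beside 31.7% and 21.6%. By p-value they were 6 (50%) and 5 (41.7%) of 12, beside 33.1% and 29.7%. Cd74, the invariant chain, had 3 resident-only regions of 75 to 125 bp, and 0 of them remained at equal length by width. H2-Eb1 had 2 resident-only regions of 125 bp, 1 of them at the promoter shown above, and both remained. Ciita, the master regulator of the group, had 2 resident-only regions and H2-Ab1 had 1. Cd86, a costimulatory ligand, had 1 shared and 3 resident-only regions.

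Of 27 genes of large peritoneal macrophages, 12 had regions in both lists, 9 in resident alone, 1 (Fcna, the ficolin A gene) in converted alone and 5 in neither. Over all 21631 protein-coding genes, 8997 had regions in both lists, 2679 in resident alone, 338 in converted alone and 9617 in neither. Of the 22 members with a region, 15 (68.2%) had more resident and 4 (18.2%) more converted regions, beside 54.6% and 8.37% of all genes. Against the widest resident peaks the counts were 7 and 5 of 18, and with those of smallest p-value 12 and 5 of 21. Surface molecules of the list differed. Icam2, an adhesion molecule in resident alone, had a 175 bp region 151 bp inside the gene (chr11:106387814-106387988). Timd4, a receptor for dying cells also in resident alone, had a 75 bp region 6122 bp from the gene (chr11:46804589-46804663). Timd4 had 0 regions at equal length by width and 1 by p-value. Itga6 and Vsig4 were in resident alone too, whereas Cd9 and Selp had 2 shared regions each and Nt5e had 2 shared and 1 resident-only. Gata6 had 2 converted-only regions of 125 and 100 bp at its end (chr18:11052289-11052413 and chr18:11052439-11052538) and 1 resident-only region of 75 bp further into the gene (chr18:11053264-11053338). Both lists were thus open at that end of Gata6 without sharing a base. When each region went to its nearest gene end, Gata6 had 2 converted and 4 resident regions, which turned the direction.

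Tgfb2, which encodes a TGF-beta ligand made by these cells, had 3 converted-only regions, 1 shared and 1 resident-only region. Of these, 3 lay within 350 bp of each other in the gene body (chr1:186705264-186705613). It had 4 converted and 0 resident regions at equal length by width. Adgre1, which encodes the surface marker F4/80, had 4 resident-only regions of 75 to 125 bp and 0 in converted, although the labels call both populations macrophages. Rarb, a retinoic acid receptor gene, had 2 shared, 1 converted-only and 3 resident-only regions, all over 100 kb from a gene end. Distance to a gene end is not distance to a start, and Rarb counted among the genes with a promoter open in both lists.

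For monocytes and small peritoneal macrophages, 12 of 24 listed genes (50%) had a region, near the 55.5% of all protein-coding genes. Those 12 genes had 16 converted and 21 resident regions in all. Among them, 5 (41.7%) had more resident regions, 0 more converted regions and 7 equal numbers, beside 54.6% and 8.37% of all genes. At equal length by p-value 3 (30%) had more resident and 5 (50%) more converted regions, beside 33.1% and 29.7%. Ccr2 and Cx3cr1, the chemokine receptors that mark the main monocyte subsets, had no region in either list, although Cx3cr1 drives the Cre of these mice. Vcan, a matrix proteoglycan gene, had 4 shared regions and 1 in each list alone. Nr4a1, a nuclear receptor of patrolling monocytes, had 3 shared regions and 1 resident-only region.

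Macrophage lineage genes had a region in at least 1 list in 26 of 26 cases, beside 12014 of 21631 protein-coding genes (55.5%). Of the 12014 genes, 8997 had regions in both lists and 2679 in resident alone. Of the 26, 20 had regions in both lists and 6 in resident alone. Those 6 included Spi1, Mertk (a receptor for dying cells) and Itgam (the CD11b integrin chain). Csf1r, the receptor for macrophage colony-stimulating factor, had a 275 bp shared region 2917 bp inside the gene (chr18:61108489-61108763) and a 75 bp resident-only region. Mef2c, a transcription factor gene, had 3 shared, 1 converted-only and 5 resident-only regions. Spi1, which encodes PU.1, had 1 resident-only region of 75 bp and 0 in converted. Cd68, a lysosomal macrophage marker, had a converted-only region at its promoter, a resident-only region 1499 bp from the gene and a shared region 6143 bp from it. In this group 18 genes (69.2%) had more resident regions and 2 (7.69%) more converted regions, beside 54.6% and 8.37% of all genes. At equal length by width 9 (37.5%) and 5 (20.8%) of 24 did, beside 31.7% and 21.6%. By p-value 6 (26.1%) and 8 (34.8%) of 23 did, which turned the order, beside 33.1% and 29.7%.

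Markers of other cell types had regions to differing degrees, and their part in the differences was not tested. No region was called at the B cell genes Cd79b, Ms4a1 and Pax5, the T cell genes Cd3d, Cd3e, Cd3g, Cd4 and Cd8a, the fibroblast genes Col1a1, Col1a2 and Col3a1, or the mast cell genes Kit and Cpa3. Regions lay at 8 of 15 B cell (53.3%), 4 of 16 T and NK cell (25%) and 11 of 15 dendritic cell markers (73.3%). For mast cells the count was 1 of 10 (10%), for eosinophils 3 of 8 (37.5%) and for neutrophils 5 of 14 (35.7%). For mesothelial and stromal markers it was 4 of 16 (25%). Beside these shares, 55.5% of all protein-coding genes had a region. Among B cell markers, Cd79a, a chain of the B cell receptor complex, had 2 converted and 1 resident regions and Cr2, a complement receptor, had 4 and 3. Among dendritic cell markers, the transcription factor gene Zbtb46 had 4 and 4 and Tcf4 7 and 7. Clec9a and Xcr1, which mark cross-presenting dendritic cells, had 0 and 2 each, and Flt3, Batf3, Ccr7 and Siglech had none. Some of these regions lay nearer to another gene. By nearest gene end alone, Cd79a and Zbtb46 had 0 regions in either list, and Cr2 had 2 and 3. In that count Tcf4 had 9 and 8, and Clec9a and Xcr1 had 0 and 1 each. Summed over each list, converted and resident regions numbered 10 and 15 for B cells, 4 and 5 for T and NK cells, 17 and 27 for dendritic cells, and 3 and 8 for neutrophils. Mast cell, eosinophil and mesothelial and stromal markers had 0, 1 and 1 converted regions and 1, 4 and 3 resident regions. Blnk, an adaptor of B cell receptor signalling that macrophages also use, had 3 resident-only regions, and Padi4, a neutrophil enzyme gene, had 3.

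TGF-beta and SMAD genes had more resident regions in 17 of 22 cases (77.3%) and more converted regions in 2 (9.09%), beside 54.6% and 8.37% of all genes. Against the widest resident peaks the counts were 7 (36.8%) and 5 (26.3%) of 19, near the 31.7% and 21.6% of all genes. Apart from Tgfb2, the members named by size of net leaned to resident. Tgfb1, the main ligand of immune cells, had 3 shared and 3 resident-only regions and a resident-only promoter. Tgfbr2, a receptor chain, had 2 shared and 2 resident-only regions. The list held 6 of the resident-only promoters and 0 converted-only ones among its 20 genes with a window, beside 8.42% and 1.55% of all genes with one.

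Genes of the ER chaperone and unfolded protein response were open in both lists at most promoters. All 23 had a region, and 11 had equal numbers. More resident regions were found at 10 (43.5%) and more converted at 2 (8.7%), beside 54.6% and 8.37% of all genes. At equal length by width these became 3 (13%) and 4 (17.4%), beside 31.7% and 21.6%. By p-value they became 7 (30.4%) and 5 (21.7%), beside 33.1% and 29.7%. Of their promoter windows, 18 of 20 (90%) were open in both lists, beside 27.1% of all genes with a window. Among all genes with an open window in either list, 73.1% were open in both. Hspa5, which encodes the chaperone BiP, had the largest net in the group in favour of converted cells. Its promoter lay in a 625 bp region at the floor in both lists (chr2:34771714-34772338), and 3 converted-only regions of 75 to 175 bp lay together beyond the other end (chr2:34778989-34779663). Holding the resident list to its widest peaks removes resident peaks only, so it could not remove these 3. Xbp1, a transcription factor of the response, had 1 converted-only region, and Atf4, another, had 2 resident-only regions.

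AP-1 and small MAF genes, which encode stress-responsive transcription factors, changed sides with list length. With all peaks 0 of 14 had more converted and 8 (57.1%) more resident regions, beside 8.37% and 54.6% of all genes. At equal length by width 7 (53.8%) of 13 had more converted and 2 (15.4%) more resident regions, beside 21.6% and 31.7%. By p-value the counts were 6 (42.9%) and 4 (28.6%) of 14, beside 29.7% and 33.1%. Fos, an AP-1 subunit gene, had 4 shared regions and none in 1 list alone. Jun had 3 shared regions and 1 in each list alone. Bach2, a repressor related to this family, had 1 shared, 2 converted-only and 5 resident-only regions.

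Inflammatory genes had a region in 10 of 22 cases. Of these, 4 (40%) had more resident, 2 (20%) more converted and 4 equal numbers, beside 54.6% and 8.37% of all genes. The order turned to 2 (22.2%) and 3 (33.3%) of 9 at equal length by width, beside 31.7% and 21.6%. By p-value the counts were 3 (33.3%) and 5 (55.6%) of 9, beside 33.1% and 29.7%. Both genes with more converted regions encode chemokines for neutrophils: Cxcl2 had a converted-only region of 125 bp, 260 bp from the gene (chr5:90903514-90903638), and Cxcl1 had 1 shared and 1 converted-only region. In the NF-kappaB and toll-like receptor list 13 of 20 genes (65%) had more resident and 3 (15%) more converted regions, beside 54.6% and 8.37%. Nfkbiz, an inducible regulator of NF-kappaB targets, had 2 shared and 2 converted-only regions, the latter within 300 bp of its end, although at p at most 1e-10 its only region was resident. Nfkbie, an inhibitor of NF-kappaB, had a converted-only promoter.

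Complement genes were mixed, with 8 of 15 (53.3%) leaning to resident and 3 (20%) to converted, beside 54.6% and 8.37% of all genes. At equal length by width 3 (27.3%) and 5 (45.5%) of 11 did, which turned the order, beside 31.7% and 21.6%. By p-value 6 (46.2%) and 3 (23.1%) of 13 did, which did not turn it, beside 33.1% and 29.7%. C3ar1 had a single region, the 225 bp converted-only peak at its promoter shown above (chr6:122856014-122856238, p-value 2.2416e-08). With a window of 50 kb its net became -1. C1qb, a chain of the C1q complex made by macrophages, had 1 resident-only region, at its promoter. Among efferocytosis and scavenger receptor genes 11 of 17 (64.7%) had more resident regions and 2 (11.8%) more converted regions, beside the same 54.6% and 8.37%. Lrp1, a receptor for lipoproteins and dying cells, had 1 shared, 1 converted-only and 5 resident-only regions, and Elmo1, an engulfment adaptor, had 1, 1 and 4.

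In the lipid list, 13 of 24 genes (54.2%) had more resident regions, near the 54.6% of all genes. The acyl-CoA dehydrogenase gene Acadl was the 1 (4.17%) with more converted regions, beside 8.37%. Abca1, the cholesterol exporter, and Fasn, the fatty acid synthase, each had 1 shared and 2 resident-only regions and a resident-only promoter. In the retinoid list 8 of 14 genes (57.1%) leaned to resident and 3 (21.4%) to converted, beside the same 54.6% and 8.37%. At equal length by width the counts were 3 (25%) and 4 (33.3%) of 12, beside 31.7% and 21.6%. By p-value they were 3 (23.1%) and 6 (46.2%) of 13, beside 33.1% and 29.7%. Rarg, a retinoic acid receptor gene, had 1 shared and 2 resident-only regions. Ncor1, which encodes a corepressor of nuclear receptors, had 1 region, a converted-only one at its promoter, and the retinol dehydrogenase-related gene Dhrs9 had 1 converted-only region, at its promoter, and 1 resident-only region. Aldh1a2, the retinoic acid-making enzyme gene, had no region in either list.

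Of 21 cell cycle genes with a region, 15 (71.4%) had more resident and 2 (9.52%) more converted regions, beside 54.6% and 8.37% of all genes. At equal length by width 11 (55%) and 2 (10%) of 20 did, beside 31.7% and 21.6%. With the resident peaks of smallest p-value the counts were 9 (42.9%) and 7 (33.3%) of 21, beside 33.1% and 29.7%. E2f1, which encodes a factor that drives entry into DNA synthesis, had a 275 bp region at an end of the gene at the floor in both lists and 3 resident-only regions of 75 to 100 bp. Top2a, the topoisomerase of dividing cells, had 1 resident-only region at its promoter. Ccnd3, a cyclin gene, had 1 shared, 1 converted-only and 3 resident-only regions.

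Insulin and growth factor signalling genes had more resident regions in 16 of 22 cases (72.7%) and more converted in 2 (9.09%), beside 54.6% and 8.37% of all genes. Against the widest resident peaks the shares were 43.8% and 25% of 16, beside 31.7% and 21.6%. Igf1r, the receptor for insulin-like growth factor 1, had 3 converted-only regions within 1 kb of its start (chr7:67951439-67952338), 2 shared regions in the gene and 1 resident-only region. Pik3r5, a regulatory subunit of the leukocyte phosphoinositide 3-kinase, had 4 resident-only regions, 1 of them at its promoter, and 0 in converted. In the integrin and adhesion list 11 of 18 (61.1%) leaned to resident and 2 (11.1%) to converted, beside the same 54.6% and 8.37%. At equal length by p-value the counts were 6 (37.5%) and 7 (43.8%) of 16, beside 33.1% and 29.7%. Cd44, the hyaluronan receptor, had 3 resident-only regions of 75 bp and 0 in converted, and at equal length by width it had 0 in either list.

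Housekeeping genes showed how far absence from a list can be read. Of 18 such genes, which are used by all cells, 10 (55.6%) had more resident and 1 (5.56%) more converted regions. The shares of all genes were 54.6% and 8.37%. At equal length by p-value the counts were 5 (27.8%) and 7 (38.9%), beside 33.1% and 29.7%. Ppia, which encodes cyclophilin A, had 2 resident-only regions and 0 in converted. The promoters of 4 of 14 housekeeping genes with a window were open in resident only, 10 in both and 0 in converted only. Over all genes with an open window in either list, these shares were 22.7%, 73.1% and 4.18%. Actb had 2 shared, 1 converted-only and 2 resident-only regions, and Gapdh had 2 shared and 1 resident-only region. At equal length by p-value the net of both turned to 1. Eif4e, which encodes the cap-binding protein of translation, had the largest net for converted in this group, with 1 shared and 3 converted-only regions at one end of the gene (chr3:138526339-138528038).

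**Figure D4:**
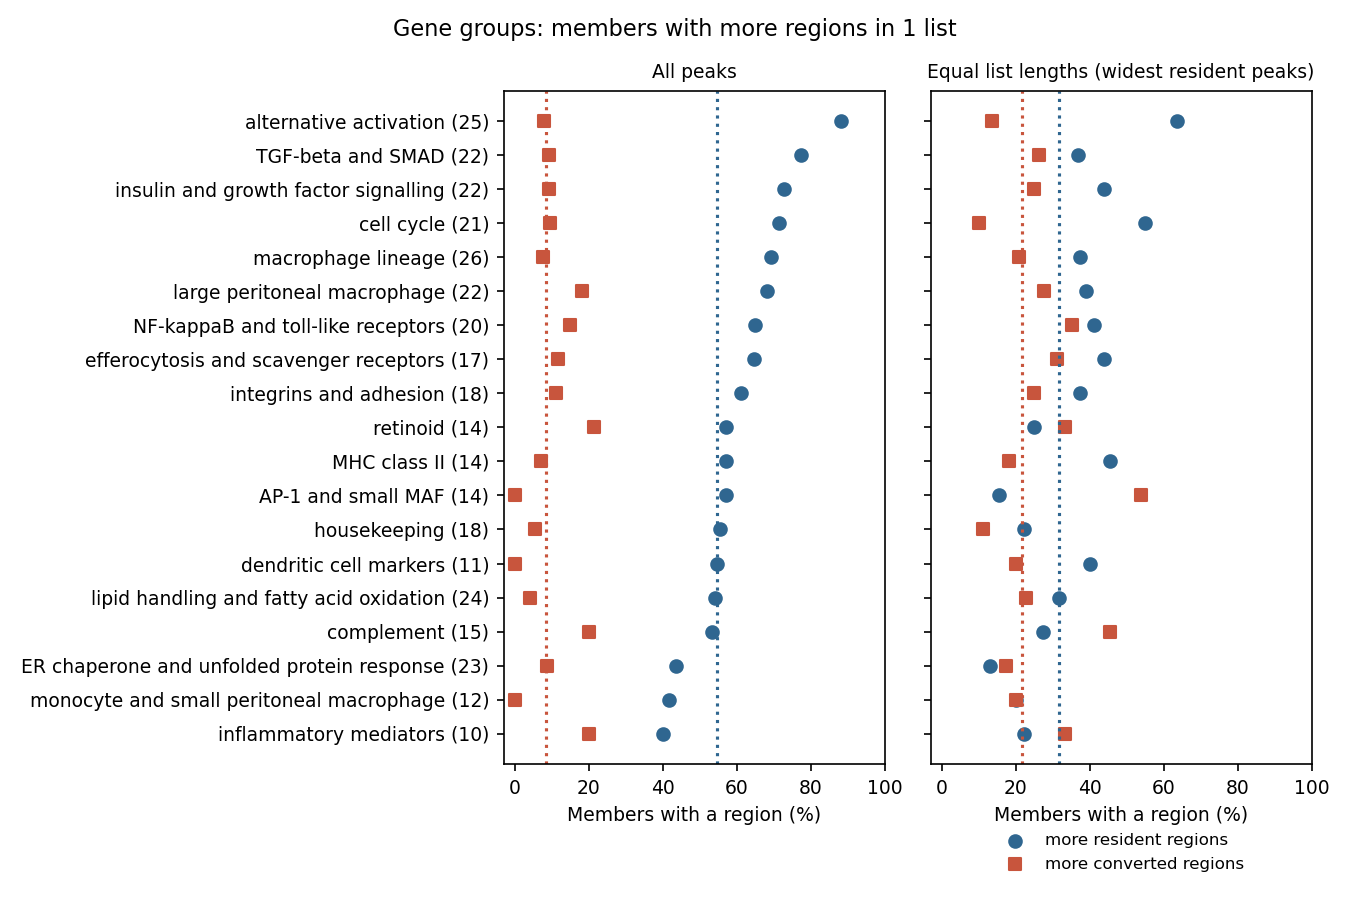
For the 19 gene groups with 10 or more members with a region (number in brackets), the share of members with more resident (blue circles) and more converted (red squares) regions (horizontal axis, percent), with all peaks (left) and with the widest resident peaks at equal length (right; its denominators are smaller). Dotted lines are the shares over all genes, 54.6% and 8.37% on the left and 31.7% and 21.6% on the right; alternative activation has the highest blue point in both panels.

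Few genes leaned strongly to converted. Over all genes, 101 (0.841%) had a net of 2 or more in favour of converted and 2287 (19%) in favour of resident. Cyfip1, an actin-regulatory gene of the WAVE complex, had the largest net for converted, with 3 shared and 4 converted-only regions of 75 to 100 bp. It was followed by Wdfy3, an adaptor of selective autophagy (10 converted and 7 resident regions), Prr5l, a regulator of mTOR complexes (8 and 5), Add3, a membrane cytoskeleton gene (6 and 3), and Arid5b (5 and 2), Rcor3 (5 and 2), Got1 (4 and 1) and Tvp23a (4 and 1). Srgap3 had 3 converted-only regions and 0 in resident, 1 of them at the floor on its promoter. Nr4a3, an orphan nuclear receptor gene, had 2 shared, 3 converted-only and 1 resident-only regions and a converted-only promoter.

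Of the 10 genes with the largest nets for resident, 4 lay in the dense stretches. Sfi1 had 89 converted and 154 resident regions, Mroh2a 4 and 21, Ugt1a10 1 and 11 and Hjurp 7 and 16. Outside them, Tmem267 had 3 and 18 regions, Gm38510 2 and 17, and Tmem135 7 and 14. Gse1, a coregulator gene, had 9 and 19. Zmiz1, which encodes a transcriptional coregulator, had 8 resident-only regions of 75 to 150 bp spread through the gene body (chr14:25464714-25646313) and 0 in converted. Of these, 5 were among the widest resident peaks.

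**Figure D5:**
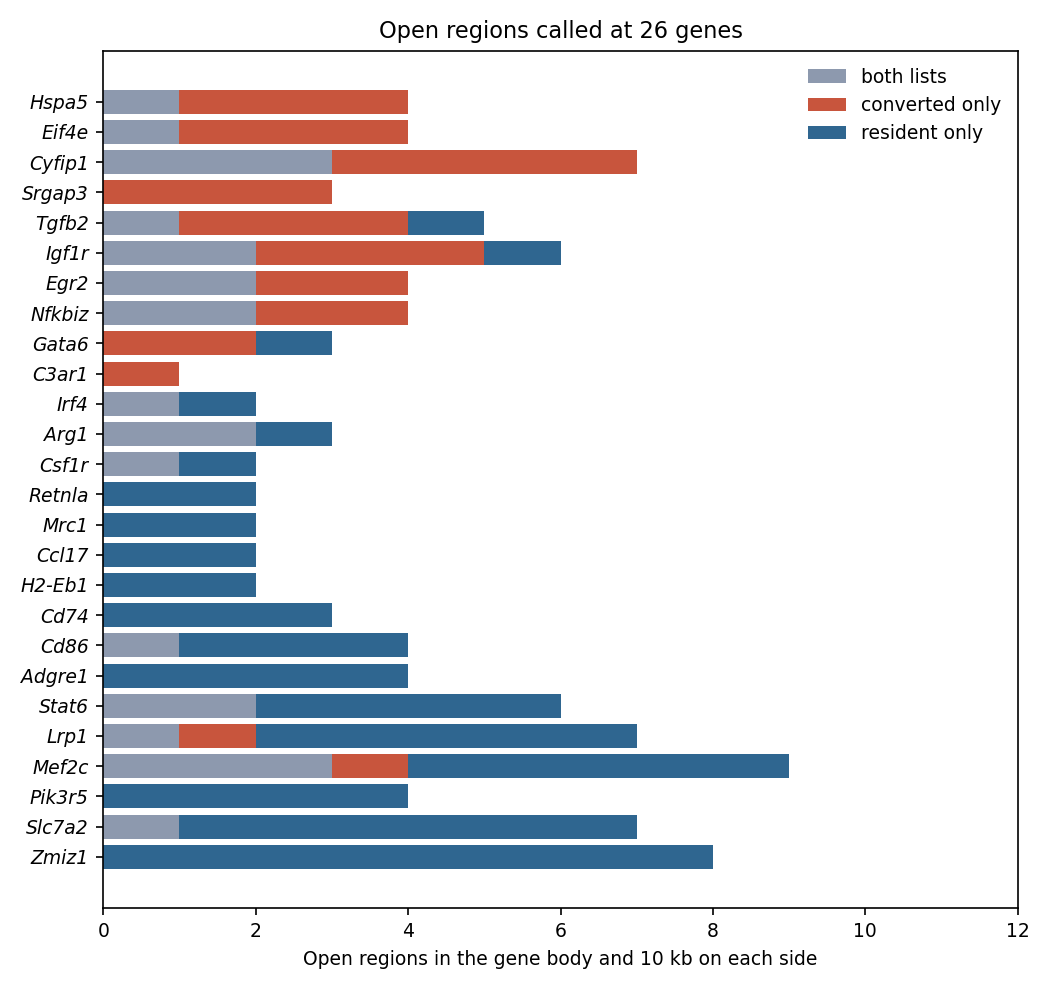
Number of open regions per gene, flanks of 10 kb included (horizontal axis), at 26 genes named in the text, split into regions called in both lists (grey), converted only (red) and resident only (blue). Hspa5 and Eif4e have 1 shared and 3 converted-only regions each, whereas all 8 regions of Zmiz1 and all 4 of Adgre1 are resident only.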

How the data were processed

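Merged ATAC-seq peak lists were analysed for 3 converted and 3 resident samples of sorted peritoneal macrophages. Per the submitters' processing notes, the authors used Bowtie2 2.2.9 and the mouse build mm10 (also named GRCm38). The deposited lists give each peak's position and a p-value, used as deposited by the authors and only to rank or limit peaks within a list. How samples were merged, and whether they were separate or pooled animals, was not given in the sources used here. Read depth is unknown, so no interval for depth can be given.

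Positions are printed 1-based. Peaks shared a site if they overlapped by 1 bp. Peaks of both lists were merged to regions, and regions were counted per protein-coding gene of RefSeq (GRCm38.p6), body and 10 kb on each side. Promoter windows ran from 250 bases before to 50 after RefSeq starts. Counts were made with pandas 2.3.3 and numpy 2.4.6 in Python 3.11.15, and figures with matplotlib 3.10.9; the counting was tested on simulated data.

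Groups were not tested against each other, since each has 1 list. The members and the 25 gene lists were chosen with earlier results of these data known. Genes were named if on a fixed list of 22 (1 of them is not reported here), if among the 3 largest nets of a gene list or the 10 largest in each direction, or if nearest to the 10 leading peaks of each class. Egr2, C3ar1, Cxcl1, Cxcl2, Fos, Jun, Vcan, Nr4a1, Nr4a3, Cd68, Il2rg, Jak1, Tyk2, Fcna, the named markers of other cell types, the housekeeping genes, the genes without a region and those named for a promoter or a floor peak were also, in part, chosen after their values were seen, as were the miRNAs and the 7 printed windows. Alternatives changed the list length, the p-value limit, the overlap, joining, the gene window and dense loci.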

Additional observations from a re-analysis of the deposited data

How the results depend on the processing

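No paired analysis was possible because the lists merge the samples of a group, and leaving out replicates was not possible for the same reason. The resident list held to its widest peaks and the removal of the 2 dense 100 kb stretches were chosen after seeing the data. The main shares of 84.6% (converted peaks shared), 53.6% (resident peaks shared), 36.4% (converted-only peaks near a gene end) and 37.6% (resident-only peaks near a gene end) are followed in that order. With the widest resident peaks at equal length they were 74.9%, 68.2%, 38.5% and 39.9%. With the resident peaks of smallest p-value at equal length the first 3 were 61.3%, 57.4% and 44.1%. At p at most 1e-05 the first was 67.1% and the third 43.3%. At p at most 1e-10 they were 74.2%, 72.3%, 65.1% and 61.2%. Where a shared site had to cover at least 50% of the narrower peak they were 81.2%, 50.1%, 38.1% and 38.6%. With peaks within 200 bp joined first they were 85.5%, 55.4%, 29.9% and 29.7%. Counting peaks within 2.5 kb as near gave 43.5% and 44.7%.

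Genes with more converted and more resident regions, 1006 and 6562 with all peaks, numbered 2359 and 3457 at equal length by width and 3312 and 3695 by p-value. At p at most 1e-05 those with more converted regions numbered 2540, at p at most 1e-10 those with more resident regions numbered 949, and with 50 kb on each side 10562. A net of 2 or more left 101 and 2287. Promoters open in converted only, resident only and both were 268, 1455 and 4686. They became 519 and 900 for the single lists at equal length by width and 1108 and 891 by p-value. Those of converted only were 865 at p at most 1e-05, and at p at most 1e-10 those of resident only were 451 and of both 1548. The cause of these shifts was not tested, except that equal lengths and lower limits leave fewer resident peaks by construction.

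Of 91 genes named with counts and a net other than 0, 75 kept their direction at equal length by p-value and 76 by width. At p at most 1e-10, 14 kept it and 74 went to 0. Equal length cuts resident peaks only, so it does not put a lean to converted to the test. Nets that reversed were those of Gata6 with nearest gene ends (-2), Jak1 (1) and Cr2 (-1) with nearest gene ends, Cr2 at p at most 1e-10 (-1), Actb by p-value and at p at most 1e-05 (1 each), Gapdh by p-value (1), C3ar1 with 50 kb (-1), Nfkbiz at p at most 1e-10 (-1) and Tmem267 at p at most 1e-10 (1). Depth limits whether a region missing from a list can be called closed, and it is unknown here.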

Other observations

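Open regions at microRNA genes were not part of the gene counts. MicroRNAs are short RNAs that pair with messenger RNAs mainly through the seed, bases 2 to 8, and lower their output. Of 1005 mouse hairpins in RefSeq (GRCm38.p6), 192 had a region within 5000 bp in either list. Of them, 106 had more resident, 25 more converted and 61 equal numbers of regions. These counts are to be read beside protein-coding genes with 10 kb of flank, where 54.6% had more resident and 8.37% more converted regions. The mature forms of 7 microRNAs known from myeloid cells are shown 5′ to 3′ with the seed in capitals, because they include a cluster with more converted regions and single genes with a resident region alone.
miR-17-5p: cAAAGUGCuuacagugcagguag
miR-20a-5p: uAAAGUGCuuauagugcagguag
miR-18a-5p: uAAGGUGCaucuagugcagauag
miR-146a-5p: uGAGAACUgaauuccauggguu
miR-223-3p: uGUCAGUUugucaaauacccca
miR-21a-5p: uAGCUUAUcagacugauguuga
miR-142a-3p: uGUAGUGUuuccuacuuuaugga

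The first 2 share the seed AAAGUGC and lie with miR-18a, whose seed differs, in 1 cluster on chromosome 14 (the miR-17-5p sequence is at chr14:115043684-115043706, plus strand). This cluster, known for promoting proliferation, had 3 shared regions, 2 converted-only regions and 1 resident-only region. Mir146 (miR-146a, a brake on NF-kappaB signalling) and Mir223 (a myeloid microRNA) had 1 resident-only region each and 0 in converted. Mir21a had 1 region of each kind, and Mir142, a microRNA gene of blood cells, had 1 shared region.

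Other hairpins leaned either way, with no test between the lists. Mir1956 had 1 shared and 3 converted-only regions, which are those of Eif4e described above. Mir6937 and Mir1904 had 2 converted-only regions and 0 in resident. Mir191 had 2 resident-only regions and 0 in converted, and Mir22 and Mir26b had 1 shared and 2 resident-only regions each. Reads over short hairpins were not measured, so none of these counts is a level of a microRNA.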
